A study of Mus musculus with 8 samples.

Results

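Genes that drive cells through the cell cycle and mitosis were described in mouse kidneys with and without ischemia-reperfusion (I/R), which injures the kidney acutely by blocking and then releasing its blood supply. The group holds 45 genes, taken by symbol from a fixed list of cyclins, mitotic kinases, spindle and kinetochore proteins, cytokinesis factors and cell cycle transcription factors, among 54965 genes measured. RNA of whole kidney was sequenced in 8 libraries, 2 in each of 4 groups: UtxPax2 Cre knockout kidneys 3 days after I/R, wild-type kidneys 3 days after I/R, knockout kidneys without I/R and wild-type kidneys without I/R. The knockout is directed at Utx (gene symbol Kdm6a), which lies on the X chromosome and encodes a histone demethylase. The Cre recombinase is driven by Pax2, a gene of the lineages that form the kidney tubules, so that cells outside the Pax2 lineage are not targeted. The labels give no age, sex or strain and do not say which part of Kdm6a is deleted. The shared protocol mentions a sham operation, but the labels of the kidneys without I/R do not state one. Nothing in the labels says that the 2 libraries of a group come from separate mice, so p-values reflect the spread between libraries, and that spread may be technical.

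A dividing cell first passes G1, in which D-type cyclins activate their kinases, then copies its DNA under cyclin E and cyclin A. It enters mitosis when cyclin A and cyclin B activate Cdk1. The spindle checkpoint then holds the anaphase-promoting complex (APC/C) until the chromosomes are attached, after which Cdc20 and the APC/C start anaphase and the central spindle guides cytokinesis. Tubule cells of the adult kidney divide rarely, and many enter the cell cycle in the days after ischemic injury. In resting cells many mitotic promoters are held silent by the DREAM complex, which binds a short element called the cell cycle genes homology region (CHR). In cycling cells the same element is bound by Mybl2 and Foxm1 together with MuvB proteins, and CCAAT boxes nearby are bound by NF-Y.

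Reads assigned to genes ranged between 16780542 and 18497835 per library. Kdm6a, on chromosome X from 18162575 to 18279936, had 1.59 and 1.83 FPKM in knockout I/R, 3.00 and 2.97 in wild-type I/R, 1.99 and 1.91 in knockout and 2.57 and 2.94 in wild-type kidneys (FPKM, a read level scaled for gene length and library size). Its level was lower in the knockout after I/R (log2 difference -0.56 ± 0.10 (SE), limma adjusted p = 0.0295), and without I/R the difference of -0.35 ± 0.10 did not pass (adjusted p = 0.431), although both knockout libraries were the lower ones in both cases. The tissue label fitted the markers: the summed level of 8 proximal tubule genes was 2796 and 2654 FPKM in knockout I/R, 1787 and 1646 in wild-type I/R, 2934 and 3537 in knockout and 2955 and 3177 in wild-type kidneys. In every library the 42 members other than the D-type cyclins were each detected, with the exception of Cdc25c, which was at 0 reads in wild-type replicate 1 (a count of 0 allows up to 3 reads).

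The promoters of the genes with the largest I/R differences in wild type hold the elements through which mitotic genes are known to be controlled. RefSeq promoters of build GRCm38.p6 were matched by symbol for 35 of the 45 genes (38 promoters of 300 bases each, 250 before to 50 after the annotated start). The stretch printed for each of 6 genes runs over 180 bases, 150 before to 30 after the start, written 5′ to 3′ on the strand of the gene, and capitals mark CCAAT boxes (CCAAT, or ATTGG on the other strand) and CHR elements (TTTGAA or TTTAAA, or TTCAAA on the other strand).
Cdc20, chr4:118437314-118437493, minus strand: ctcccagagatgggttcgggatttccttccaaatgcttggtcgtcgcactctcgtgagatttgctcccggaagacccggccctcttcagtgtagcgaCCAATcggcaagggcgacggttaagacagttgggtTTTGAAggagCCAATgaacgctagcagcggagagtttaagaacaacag
Ccnb2, chr9:70421525-70421704, minus strand: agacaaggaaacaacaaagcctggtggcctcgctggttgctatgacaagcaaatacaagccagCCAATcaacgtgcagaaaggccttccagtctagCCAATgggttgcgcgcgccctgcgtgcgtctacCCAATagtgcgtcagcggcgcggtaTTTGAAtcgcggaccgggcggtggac
Ube2c, chr2:164769779-164769958, plus strand: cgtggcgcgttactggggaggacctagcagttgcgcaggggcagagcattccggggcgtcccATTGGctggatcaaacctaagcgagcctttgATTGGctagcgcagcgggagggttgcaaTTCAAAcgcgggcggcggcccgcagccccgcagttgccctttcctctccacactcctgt
Mki67, chr7:135716350-135716529, minus strand: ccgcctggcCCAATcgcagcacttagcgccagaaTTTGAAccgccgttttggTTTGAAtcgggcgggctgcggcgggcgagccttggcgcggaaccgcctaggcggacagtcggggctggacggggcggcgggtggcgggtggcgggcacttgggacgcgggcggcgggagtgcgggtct
Top2a, chr11:99024160-99024339, minus strand: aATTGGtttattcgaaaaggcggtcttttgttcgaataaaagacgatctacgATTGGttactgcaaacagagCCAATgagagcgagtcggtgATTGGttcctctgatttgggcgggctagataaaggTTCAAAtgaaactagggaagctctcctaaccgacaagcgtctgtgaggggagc
Plk1, chr7:122159285-122159464, plus strand: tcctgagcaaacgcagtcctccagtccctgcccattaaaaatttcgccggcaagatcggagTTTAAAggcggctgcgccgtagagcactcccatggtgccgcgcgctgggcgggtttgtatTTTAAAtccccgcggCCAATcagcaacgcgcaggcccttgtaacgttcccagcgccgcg

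The 6 were chosen for their I/R differences among promoters with at least 1 searched element, and all 6 held both. Over the 38 promoters of the group, searched on both strands, 28 (73.7%) held a CCAAT box, against 37.4% of all 32851 promoters in the RefSeq table and 37.0% of the 11904 promoters of genes tested here. A CHR element was found in 29 (76.3%), against 27.6% of all promoters and 19.3% of those of tested genes. Both elements together were found in 25 (65.8%), against 10.7% and 7.33%, and at least 2 CCAAT boxes in 18 (47.4%), against 11.7% and 13.9%. The 4 words searched for E2F sites, TTTCCCGC, TTTCGCGC, TTTGCCGC and TTTGGCGC, were found in 1 promoter, that of Cdk1 (2.63%), against 2.26% and 3.71%. No searched word contains another. The promoters of E2f1, Mybl2, Mad2l1, Nuf2 and Nusap1 held none of the searched words. Those of Bub1 and Cdc25b and the 2 promoters of Ccnd3 held no CHR. A match is a description of the letters and not of binding.

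**Figure D1:**
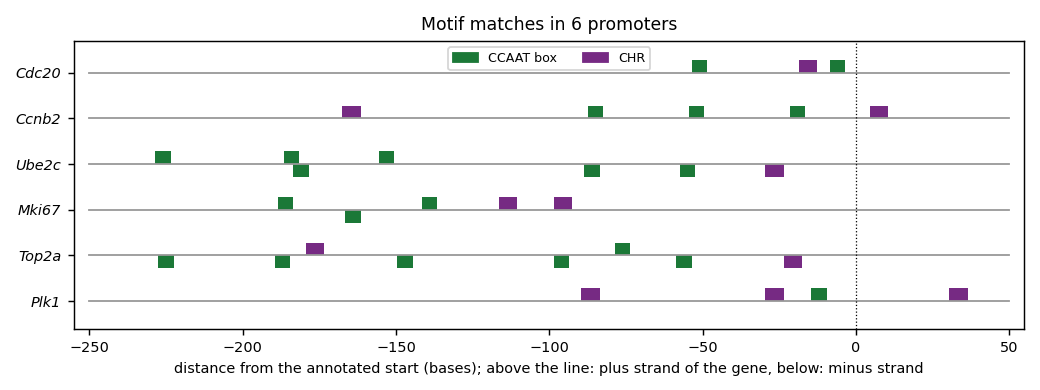
Positions of CCAAT boxes and CHR elements in the promoters of 6 mitotic genes; the x axis is the distance from the annotated start in bases, marks above a line are on the strand of the gene and marks below it on the other strand. Each of the 6 promoters holds at least 1 CCAAT box and 1 CHR element, and Ube2c and Top2a hold 6 CCAAT boxes each.

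Without I/R, the kidney held little RNA of these genes. Over the 42 genes other than the D-type cyclins, the median of the single values in the 4 libraries without I/R was 0.372 FPKM and the highest single value was 2.51 FPKM, of Cdc25b. Their summed level was 109.6 and 133 FPKM in knockout I/R, 181 and 195 in wild-type I/R, 22.5 and 23.8 in knockout and 21.7 and 18.4 in wild-type kidneys. All I/R libraries lay above all others, and the knockout I/R libraries lay below the wild-type I/R libraries. In whole-kidney RNA, fewer dividing cells and less RNA per dividing cell cannot be told apart. The 3 D-type cyclins, which are expressed outside division too, summed to 52.1 and 54.7 FPKM in knockout I/R, 48.3 and 51.1 in wild-type I/R, 56.2 and 61.1 in knockout and 58.1 and 61.1 in wild-type kidneys, a sum above that of the other 42 genes in every library without I/R and below it in every I/R library.

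**Figure D2:**
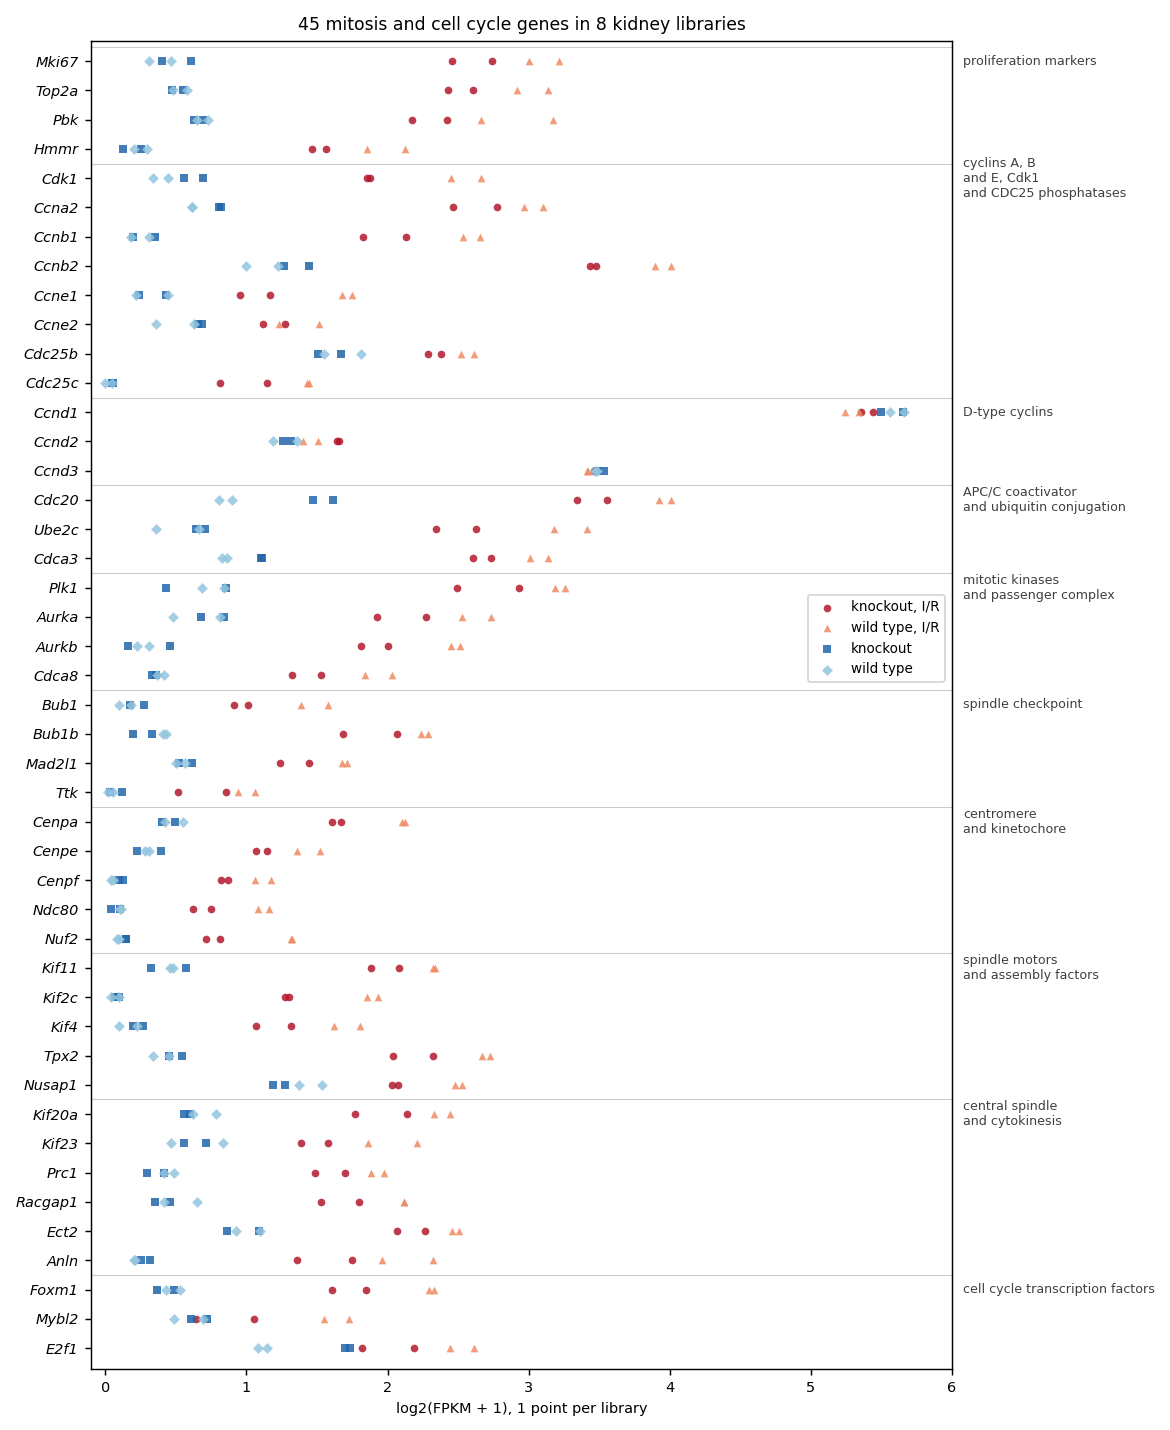
Level of each of the 45 genes in each of the 8 libraries on the log2(FPKM + 1) scale, grouped by role; 1 point is 1 library. As deposited, the I/R libraries lie to the right for all but the D-type cyclins Ccnd1 and Ccnd3 and, in the knockout, Mybl2; with equal FPKM sums the differences of Ccnd3 and, in the knockout, of Ccnd1 are above 0.

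After I/R, nearly the whole mitotic programme was higher in both genotypes. Differences were tested with limma on log2(FPKM + 1) for the 13304 genes that averaged 1 FPKM or more across all 8 libraries, and those with an adjusted p under 0.05 (Benjamini-Hochberg) are the calls. Of the 45 genes, 35 could be tested. In knockout kidneys 30 of these 35 rose after I/R and 0 fell, where 8.95% of all tested genes rose and 11.7% fell. In wild-type kidneys 32 rose and 1, Ccnd1, fell, where 17.4% of tested genes rose and 20.1% fell. The median log2 difference of the tested members was 1.30 in knockout and 1.84 in wild type, beside -0.03 and -0.03 over all tested genes. On the linear scale the median ratio of I/R to no I/R over the 45 genes was 6.50 in knockout and 10.9 in wild type.

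These counts describe the group and are no measure of its strength, since 27 of the 35 tested members averaged under 1 FPKM without I/R and reached the filter only through the I/R libraries. With no filter on low values, all 45 members entered the test, and 37 rose in knockout (where 3.06% of genes rose) and 42 in wild type (where 8.67% rose). The I/R libraries lay above those without I/R, with no overlap, for 42 of 45 members in knockout and 43 of 45 in wild type. The same held for 27.8% and 33.4% of all tested genes. They lay below for 2 members in each genotype, Ccnd1 and Ccnd3, as for 35.7% and 38.5% of all tested genes. Scaling each library to the same FPKM sum moved the median I/R difference of all genes by 0.21 in knockout and 0.25 in wild type. It moved the share of calls that were higher to 84.4% in knockout, against 43.3% as deposited, and to 79.5% in wild type, against 46.5%. Members other than the D-type cyclins differed by more than that shift, apart from Mybl2 in the knockout.

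The proliferation markers were higher after I/R in both genotypes. Mki67, whose protein Ki-67 coats mitotic chromosomes (ENSMUSG00000031004, chromosome 7 from 135689784 to 135716361, minus strand, GRCm38), had 4.49 and 5.70 FPKM in knockout I/R, 7.03 and 8.29 in wild-type I/R, 0.323 and 0.522 in knockout and 0.379 and 0.240 in wild-type kidneys. Top2a, the topoisomerase that untangles sister DNA, had 4.39 and 5.07 FPKM in knockout I/R, 6.54 and 7.80 in wild-type I/R, 0.384 and 0.467 in knockout and 0.494 and 0.391 in wild-type kidneys. For both genes the 4 I/R libraries lay far above the other 4 and the genotypes did not overlap after I/R. Mki67 rose by 2.10 ± 0.15 (log2 ± SE, as below) in knockout (adjusted p = 0.000772) and by 2.72 ± 0.15 in wild type (adjusted p = 6.86e-05). Pbk, a mitotic kinase, and Hmmr, a microtubule-binding protein of the spindle, also rose in both genotypes, by 1.64 and 1.33 in knockout and 2.23 and 1.74 in wild type. Their levels ran over 1.76 to 4.36 FPKM in knockout I/R, 2.62 to 8.02 in wild-type I/R, 0.0892 to 0.618 in knockout and 0.152 to 0.656 in wild-type kidneys.

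Among the genes of mitotic entry, Cdk1, the kinase that drives it, had 2.62 and 2.67 FPKM in knockout I/R, 4.47 and 5.32 in wild-type I/R, 0.617 and 0.470 in knockout and 0.361 and 0.263 in wild-type kidneys. Its partner cyclin B2 (Ccnb2) was the most abundant of the mitotic cyclins, with 9.80 and 10.2 FPKM in knockout I/R, 15.1 and 13.9 in wild-type I/R, 1.40 and 1.71 in knockout and 0.997 and 1.33 in wild-type kidneys. Cyclin A2 (Ccna2) had 4.52 and 5.86 FPKM in knockout I/R, 6.82 and 7.59 in wild-type I/R, 0.746 and 0.762 in knockout and 0.530 and 0.530 in wild-type kidneys. All 3 rose in both genotypes, and in each the wild-type I/R libraries were highest, the knockout I/R libraries next, and the knockout libraries without I/R above the wild-type ones. Ccnb2 rose by 2.10 ± 0.11 in knockout (adjusted p = 0.000263) and 2.84 ± 0.11 in wild type (adjusted p = 3.91e-05). Cyclin B1 (Ccnb1) rose by 1.70 in knockout and 2.35 in wild type, and the phosphatase Cdc25b, which activates Cdk1, by 0.75 and 0.89. The levels of Ccnb1 and Cdc25b ran over 2.54 to 4.20 FPKM in knockout I/R, 4.74 to 5.31 in wild-type I/R, 0.148 to 2.18 in knockout and 0.132 to 2.51 in wild-type kidneys. Pseudogenes of Ccnb1 and Ccnb2 (Ccnb1-ps and Ccnb2-ps) reached at most 0.475 and 1.02 FPKM, and how reads were divided between them and their parents is not given, so the 2 levels are uncertain to that extent.

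The remaining genes of this role had a mean under 1 FPKM and were left out of the test. Ccne1, a cyclin of S phase entry, had 0.936 and 1.24 FPKM in knockout I/R, 2.36 and 2.21 in wild-type I/R, 0.182 and 0.344 in knockout and 0.359 and 0.163 in wild-type kidneys. Its relative Ccne2 had 1.17 and 1.41 FPKM in knockout I/R, 1.35 and 1.86 in wild-type I/R, 0.574 and 0.611 in knockout and 0.546 and 0.283 in wild-type kidneys. Cdc25c, another phosphatase that activates Cdk1, had 0.759 and 1.21 FPKM in knockout I/R, 1.69 and 1.72 in wild-type I/R, 0.0357 and 0.0314 in knockout and 0 and 0.0319 in wild-type kidneys. In each of the 3, all I/R libraries exceeded those without I/R of the same genotype. With no filter, the I/R difference of Ccne1 was 0.73 in knockout (adjusted p = 0.0441) and 1.38 in wild type (0.00267). For Ccne2 it was 0.52 (adjusted p = 0.123) and 0.88 (0.0152), so that Ccne2 passed in wild type alone; the difference between the genotypes did not pass for it (interaction adjusted p = 0.645). For Cdc25c it was 0.93 (adjusted p = 0.0186) and 1.41 (0.00176).

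The D-type cyclins, which act in G1, were not called higher after I/R, although Ccnd2 passed under some alternatives (in both genotypes with equal FPKM sums, and in knockout also without the mean-variance trend and with limma-voom on recovered reads). Ccnd1 was the most abundant member without I/R, with 39.9 and 42.4 FPKM in knockout I/R, 36.9 and 39.6 in wild-type I/R, 44.2 and 49.4 in knockout and 46.3 and 49.7 in wild-type kidneys. Ccnd3 had 10.1 and 10.1 FPKM in knockout I/R, 9.71 and 9.65 in wild-type I/R, 10.6 and 10.2 in knockout and 10.2 and 10.1 in wild-type kidneys. Ccnd2 had 2.13 and 2.16 FPKM in knockout I/R, 1.64 and 1.84 in wild-type I/R, 1.40 and 1.49 in knockout and 1.56 and 1.28 in wild-type kidneys. As deposited, Ccnd1 and Ccnd3 lay slightly lower after I/R in both genotypes and Ccnd2 slightly higher (with equal FPKM sums Ccnd1 in knockout and Ccnd3 in both genotypes turned to above 0), with no overlap between I/R and other libraries of the same genotype. Of these, Ccnd1 fell in wild type (-0.32 ± 0.09, adjusted p = 0.0248), and with equal FPKM sums its difference was -0.03 (adjusted p = 0.849). That call was also lost when wild-type I/R library 1 or 2 was left out (adjusted p = 0.116 and 0.0513) and when wild-type library 1 or 2 was left out (0.0563 and 0.138). In knockout the difference of Ccnd1 was -0.18 ± 0.09 (adjusted p = 0.181), and 0.07 with equal sums. Ccnd2 differed by 0.36 ± 0.11 in knockout (adjusted p = 0.0585) and 0.18 ± 0.11 in wild type (0.246), and with equal sums it passed in both (0.52, adjusted p = 0.0267, and 0.37, adjusted p = 0.0497). Ccnd3 differed by -0.04 in knockout and -0.06 in wild type, neither of which passed, and by 0.19 and 0.21 with equal sums, which did not pass either.

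Genes of the APC/C and its ubiquitin chain formation gave some of the largest I/R differences. Cdc20, the coactivator that starts anaphase (ENSMUSG00000006398, chromosome 4 from 118432901 to 118437352, minus strand, GRCm38), had 9.16 and 10.8 FPKM in knockout I/R, 15.1 and 14.2 in wild-type I/R, 1.78 and 2.06 in knockout and 0.749 and 0.861 in wild-type kidneys. Ube2c, the ubiquitin-conjugating enzyme of the complex, had 4.07 and 5.18 FPKM in knockout I/R, 8.08 and 9.64 in wild-type I/R, 0.559 and 0.634 in knockout and 0.587 and 0.285 in wild-type kidneys. Cdca3, a protein linked to ubiquitin-dependent turnover at mitotic entry, had 5.10 and 5.64 FPKM in knockout I/R, 7.04 and 7.80 in wild-type I/R, 1.16 and 1.15 in knockout and 0.777 and 0.820 in wild-type kidneys. After I/R the genotypes separated for all 3, with the wild-type libraries higher, whereas without I/R the knockout libraries were the higher for Cdc20 and Cdca3 and overlapped the wild type for Ube2c. Cdc20 rose by 1.91 ± 0.10 in knockout (adjusted p = 0.000266) and by 3.11 ± 0.10 in wild type (adjusted p = 2.69e-05). That value in wild type was the largest I/R difference among the members on the log2(FPKM + 1) scale. As a linear ratio of I/R to no I/R in wild type, Cdc20 had 18.2, and some members had more, such as Mki67 with 24.7. Cdc20 overlaps the more abundant gene Elovl1 on the opposite strand, and since the strand setting of the counting is not given, its reads are uncertain. Elovl1 had 39.1 and 37.4 FPKM in knockout I/R, 43.1 and 47.8 in wild-type I/R, 45.3 and 42.0 in knockout and 39.1 and 40.9 in wild-type kidneys. The order of the genotypes was that of Cdc20 both with and without I/R, and Elovl1 was also higher after I/R in wild type. In knockout Elovl1 was lower after I/R, unlike Cdc20. The part of Elovl1 reads in the Cdc20 values was not tested.

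The mitotic kinases and the passenger complex rose in both genotypes. Plk1, a kinase of mitotic entry and spindle assembly, had 4.64 and 6.64 FPKM in knockout I/R, 8.57 and 8.13 in wild-type I/R, 0.346 and 0.805 in knockout and 0.608 and 0.787 in wild-type kidneys. Aurka, the kinase of spindle poles, had 2.80 and 3.84 FPKM in knockout I/R, 4.77 and 5.64 in wild-type I/R, 0.793 and 0.603 in knockout and 0.754 and 0.391 in wild-type kidneys. Both rose after I/R in each genotype, and replicate 1 of the knockout I/R kidneys was the lower of the pair for both, as for 41 of the 45 members. In wild-type I/R kidneys replicate 1 was the lower for 33 of the 45. The share of all tested genes with either order was not counted. Plk1 rose by 2.07 ± 0.19 in knockout (adjusted p = 0.00145) and 2.46 ± 0.19 in wild type (adjusted p = 0.000197). Aurkb, the kinase of the chromosomal passenger complex, rose by 1.60 and 2.21, and Cdca8, which encodes the borealin subunit of that complex, by 1.08 and 1.55. The levels of Aurkb and Cdca8 ran over 1.5 to 3.01 FPKM in knockout I/R, 2.58 to 4.70 in wild-type I/R, 0.117 to 0.373 in knockout and 0.168 to 0.332 in wild-type kidneys.

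Of the spindle checkpoint genes, Bub1b, which encodes BubR1, had 2.21 and 3.19 FPKM in knockout I/R, 3.89 and 3.71 in wild-type I/R, 0.146 and 0.257 in knockout and 0.327 and 0.347 in wild-type kidneys. Mad2l1, which encodes the checkpoint protein Mad2, had 1.36 and 1.72 FPKM in knockout I/R, 2.19 and 2.28 in wild-type I/R, 0.437 and 0.531 in knockout and 0.417 and 0.479 in wild-type kidneys. Both rose in each genotype, Bub1b by 1.61 in knockout and 1.84 in wild type, and Mad2l1 by 0.77 and 1.16. The kinase gene Bub1 had 0.885 and 1.02 FPKM in knockout I/R, 1.61 and 1.99 in wild-type I/R, 0.207 and 0.126 in knockout and 0.132 and 0.0710 in wild-type kidneys. The checkpoint kinase Ttk (Mps1) had 0.426 and 0.810 FPKM in knockout I/R, 0.915 and 1.09 in wild-type I/R, 0.0844 and 0.0248 in knockout and 0.0129 and 0.0377 in wild-type kidneys. These 2 genes averaged under 1 FPKM. With no filter, Bub1 passed for I/R in both genotypes (adjusted p = 0.0238 in knockout and 0.00150 in wild type), and Ttk in wild type (0.00547) and not in knockout (0.0508; interaction 0.547).

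At the centromere, Cenpa, the histone H3 variant that marks it, had 2.18 and 2.05 FPKM in knockout I/R, 3.35 and 3.3 in wild-type I/R, 0.319 and 0.406 in knockout and 0.467 and 0.338 in wild-type kidneys, and rose by 1.19 ± 0.12 in knockout (adjusted p = 0.00185) and 1.63 ± 0.12 in wild type (adjusted p = 0.000164). The other 4 kinetochore genes averaged under 1 FPKM. Cenpe, a kinetochore motor, had 1.22 and 1.1 FPKM in knockout I/R, 1.57 and 1.88 in wild-type I/R, 0.313 and 0.170 in knockout and 0.214 and 0.237 in wild-type kidneys. Cenpf, a large kinetochore protein, had 0.763 and 0.829 FPKM in knockout I/R, 1.08 and 1.25 in wild-type I/R, 0.0673 and 0.0909 in knockout and 0.0289 and 0.0361 in wild-type kidneys. These 2 genes stayed low in every library, yet the 4 I/R libraries lay above the other 4. Ndc80, which binds microtubules at the kinetochore, had 0.541 and 0.683 FPKM in knockout I/R, 1.12 and 1.24 in wild-type I/R, 0.0746 and 0.0282 in knockout and 0.0784 and 0.0762 in wild-type kidneys. Its partner Nuf2 had 0.759 and 0.637 FPKM in knockout I/R, 1.5 and 1.49 in wild-type I/R, 0.109 and 0.106 in knockout and 0.0702 and 0.0585 in wild-type kidneys. With no filter, all 4 passed for I/R in both genotypes, with adjusted p between 0.000867 (Nuf2 in wild type) and 0.0219 (Cenpe in knockout).

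Among spindle motors and assembly factors, Tpx2, which activates Aurka on the spindle, had 3.10 and 4.0 FPKM in knockout I/R, 5.37 and 5.61 in wild-type I/R, 0.370 and 0.457 in knockout and 0.367 and 0.264 in wild-type kidneys. Nusap1, a microtubule-bundling protein, had 3.21 and 3.10 FPKM in knockout I/R, 4.57 and 4.77 in wild-type I/R, 1.41 and 1.28 in knockout and 1.90 and 1.58 in wild-type kidneys. Kif2c, a kinesin that depolymerises microtubules, had 1.42 and 1.47 FPKM in knockout I/R, 2.82 and 2.61 in wild-type I/R, 0.0476 and 0.0699 in knockout and 0.0292 and 0.0709 in wild-type kidneys. All 3 rose in both genotypes, and Nusap1 had the smallest difference of the 3 and the highest level without I/R. The differences were 1.68, 0.82 and 1.2 in knockout and 2.30, 1.05 and 1.82 in wild type for Tpx2, Nusap1 and Kif2c. Kif11, the motor that pushes the spindle poles apart, rose by 1.53 in knockout and 1.86 in wild type, with 2.68 and 3.24 FPKM in knockout I/R, 4.0 and 4.05 in wild-type I/R, 0.488 and 0.253 in knockout and 0.396 and 0.372 in wild-type kidneys. The chromosome-bound kinesin Kif4, which averaged under 1 FPKM, had 1.1 and 1.49 FPKM in knockout I/R, 2.08 and 2.49 in wild-type I/R, 0.201 and 0.144 in knockout and 0.0692 and 0.168 in wild-type kidneys, and with no filter it passed in both genotypes (adjusted p = 0.0203 in knockout and 0.00168 in wild type). Kif4 overlaps the more abundant Pdzd11 on the opposite strand and is uncertain for the reason given for Cdc20. Nusap1 is uncertain for the same reason, as it overlaps Oip5 on the opposite strand. Oip5 had 1.15 and 1.86 FPKM in knockout I/R and 2.85 and 2.90 in wild-type I/R kidneys, the same order of genotypes as Nusap1.

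All 6 genes of the central spindle and cytokinesis rose in both genotypes, with log2 differences between 0.85 and 1.38 in knockout and between 1.38 and 1.94 in wild type. Ect2, the exchange factor that activates RhoA at the cleavage furrow, had 3.19 and 3.81 FPKM in knockout I/R, 4.49 and 4.69 in wild-type I/R, 1.13 and 0.816 in knockout and 1.13 and 0.895 in wild-type kidneys. Kif20a, a kinesin of the central spindle, had 2.42 and 3.40 FPKM in knockout I/R, 4.03 and 4.44 in wild-type I/R, 0.474 and 0.514 in knockout and 0.721 and 0.538 in wild-type kidneys. In both genes the 4 I/R libraries lay above the other 4, with wild type highest. The other genes of this role were Kif23 and Racgap1 (the subunits of centralspindlin), Prc1 (which bundles the microtubules of the central spindle) and Anln (anillin, a scaffold of the contractile ring). These 4 spanned 1.56 to 2.48 FPKM in knockout I/R, 2.63 to 4.01 in wild-type I/R, 0.189 to 0.639 in knockout and 0.150 to 0.781 in wild-type kidneys, again with no overlap between I/R and other libraries. Kif23 in knockout lost its call without either knockout I/R library, without either knockout library and with no filter; its adjusted p was 0.0212 with all libraries and 0.0630 with no filter. Without knockout I/R replicate 2, the calls of Cdc25b and Mad2l1 in knockout were lost too.

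The transcription factors differed among themselves. Foxm1, the activator of late cell cycle genes, had 2.05 and 2.60 FPKM in knockout I/R, 3.91 and 4.04 in wild-type I/R, 0.289 and 0.403 in knockout and 0.442 and 0.344 in wild-type kidneys. Mybl2 (B-Myb), which acts with the MuvB proteins, had 0.563 and 1.08 FPKM in knockout I/R, 2.32 and 1.93 in wild-type I/R, 0.523 and 0.646 in knockout and 0.618 and 0.400 in wild-type kidneys. E2f1, an activator of S phase genes (ENSMUSG00000027490, chromosome 2 from 154559407 to 154569892, minus strand, GRCm38), had 2.53 and 3.56 FPKM in knockout I/R, 5.11 and 4.44 in wild-type I/R, 2.33 and 2.24 in knockout and 1.21 and 1.12 in wild-type kidneys. Foxm1 followed the mitotic genes and rose by 1.30 ± 0.13 in knockout (adjusted p = 0.00190) and 1.84 ± 0.13 in wild type (adjusted p = 0.000155). Mybl2 rose in wild type (1.05 ± 0.18, adjusted p = 0.00437). In knockout its I/R libraries overlapped those without I/R, and the difference was 0.19 ± 0.18 (95% interval -0.24 to 0.62, adjusted p = 0.501). E2f1 rose in wild type (1.41 ± 0.14, adjusted p = 0.000436) and had a difference of 0.29 ± 0.14 in knockout (95% interval -0.03 to 0.61, adjusted p = 0.179). The interaction of genotype and I/R did not pass for Mybl2 (-0.86 ± 0.26, adjusted p = 0.170) or E2f1 (-1.13 ± 0.19, adjusted p = 0.0760), so a difference between the genotypes in the I/R response of these genes is not shown by this test.

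**Figure D3:**
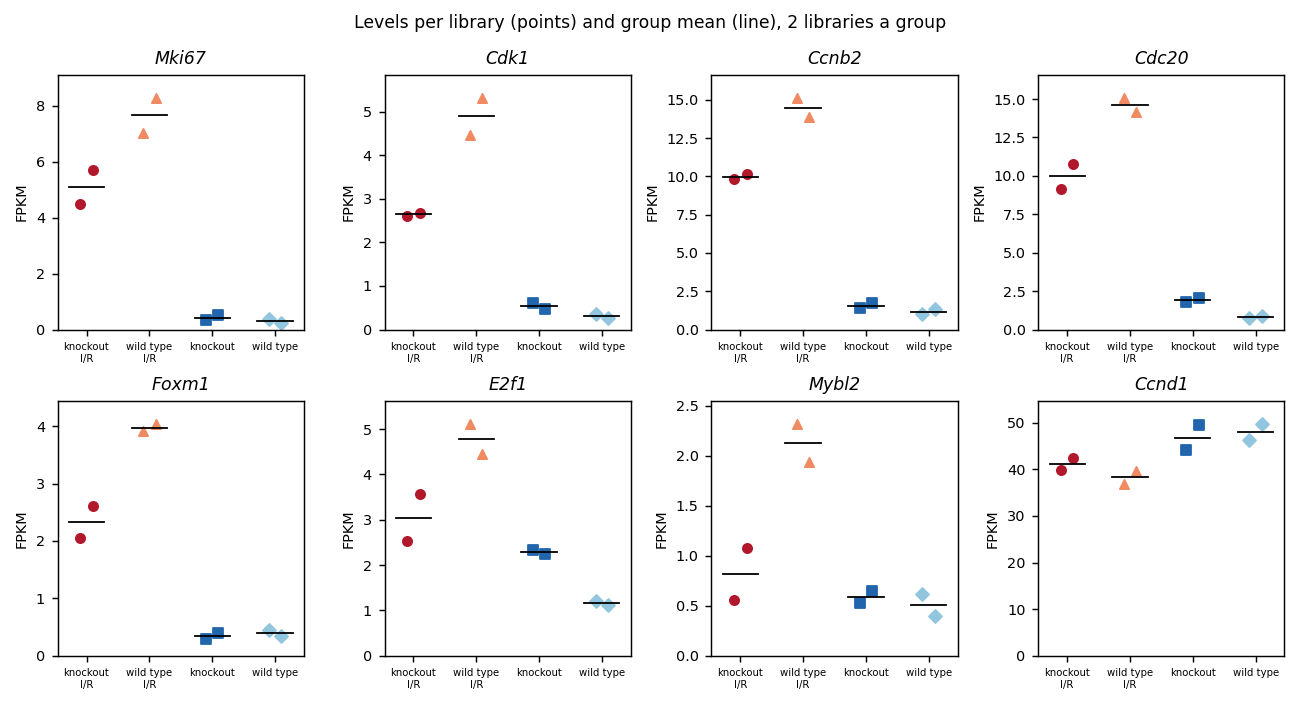
Levels of 8 genes in FPKM, 1 panel per gene with its own axis that starts at 0; points are libraries (2 a group) and lines are group means. Mki67, Cdk1, Ccnb2, Cdc20 and Foxm1 are highest in wild-type I/R kidneys and next in knockout I/R kidneys, Mybl2 in knockout I/R kidneys overlaps the knockout kidneys without I/R, and Ccnd1 is lower after I/R as deposited (with equal FPKM sums its difference is 0.07 in knockout and -0.03 in wild type).

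**Figure D4:**
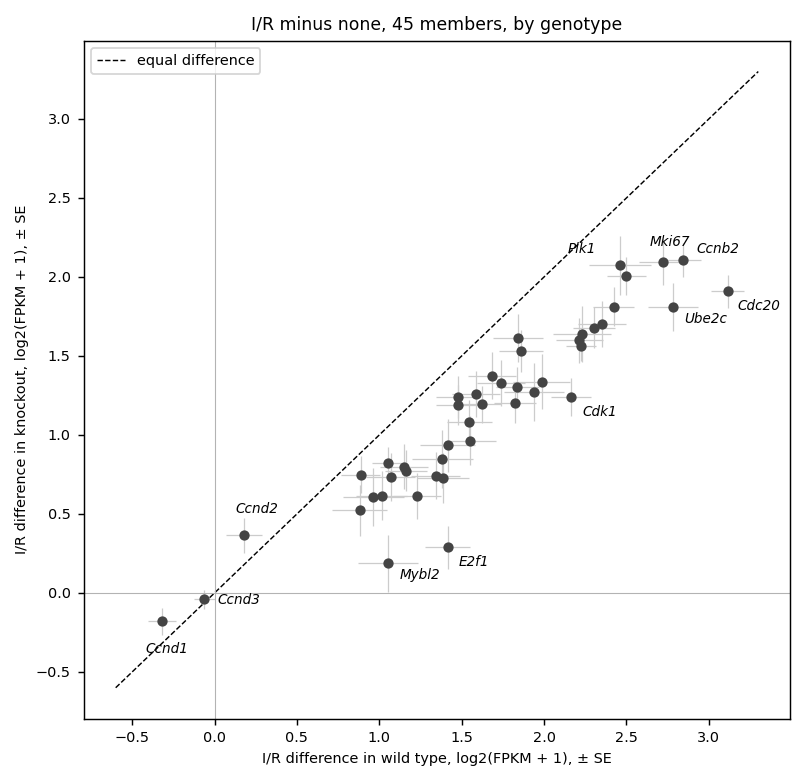
I/R difference in knockout (y axis) against that in wild type (x axis) for the 45 genes, log2(FPKM + 1), with bars of 1 SE; the dashed line marks equal differences. All genes but the D-type cyclins lie below the line, with E2f1 and Mybl2 below the run of the other genes; the test of the gap between genotypes for single genes passed for Cdc20.

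After I/R, knockout kidneys held less RNA of the mitotic genes than wild-type kidneys. The mean level in knockout I/R kidneys was a median of 64.6% of that in wild-type I/R kidneys over the 45 genes (from 38.6% for Mybl2 to 123% for Ccnd2), and below 100% for 42 of them, where the median over all tested genes was 100.5%. Of the 35 tested members, 7 were lower in knockout I/R kidneys and 0 were higher, where 3.22% of all tested genes were lower and 2.79% higher. The median log2 difference was -0.51 over the tested members, beside 0.01 over all tested genes. At an unadjusted p under 0.05, 31 of the 35 passed, where 24.2% of all tested genes did. For 41 of the 45 members both knockout I/R libraries lay below both wild-type I/R libraries, an order that 28.6% of all tested genes had. The exceptions were Ccne2, whose libraries overlapped, and the 3 D-type cyclins, whose knockout I/R libraries were the higher on the deposited scale, as for 29.7% of tested genes.

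The 7 genes that fell below wild type belonged to 4 roles. Ube2c, with 4.07 and 5.18 FPKM in knockout I/R and 8.08 and 9.64 FPKM in wild-type I/R kidneys, had the largest difference (-0.81 ± 0.15, adjusted p = 0.0347). Cdk1 was at 54.0% of its wild-type I/R level (-0.69 ± 0.12, adjusted p = 0.0295), with knockout I/R replicates nearly equal at 2.62 and 2.67 FPKM. Ccnb2 was at 68.8% (-0.50 ± 0.11, adjusted p = 0.0481) and Cdc20 at 68.2% (-0.51 ± 0.10, adjusted p = 0.0385). The spindle genes Kif2c (-0.60 ± 0.13, adjusted p = 0.0466) and Nusap1 (-0.45 ± 0.10, adjusted p = 0.0466) and the transcription factor gene Foxm1 (-0.59 ± 0.13, adjusted p = 0.0492) made up the rest. In all 7 the 2 genotypes did not overlap after I/R.

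Many members that missed the threshold had differences of a like size. Mki67 differed by -0.51 (95% interval -0.85 to -0.17, adjusted p = 0.0888) and Plk1 by -0.51 (-0.96 to -0.06, adjusted p = 0.157). Mybl2 had -0.79 (95% interval -1.22 to -0.36, adjusted p = 0.0533). Among the members under 1 FPKM the differences ran from -0.65 for Ccne1 to -0.18 for Ccne2, and with no filter Nuf2 passed (adjusted p = 0.0481, where 0.586% of all genes were lower) and the other 9 did not. The D-type cyclins had 0.10 (Ccnd1), 0.20 (Ccnd2) and 0.05 (Ccnd3), none of which passed, and with equal sums -0.00408, 0.13 and -0.05, so that Ccnd1 and Ccnd3 changed sign.

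**Figure D5:**
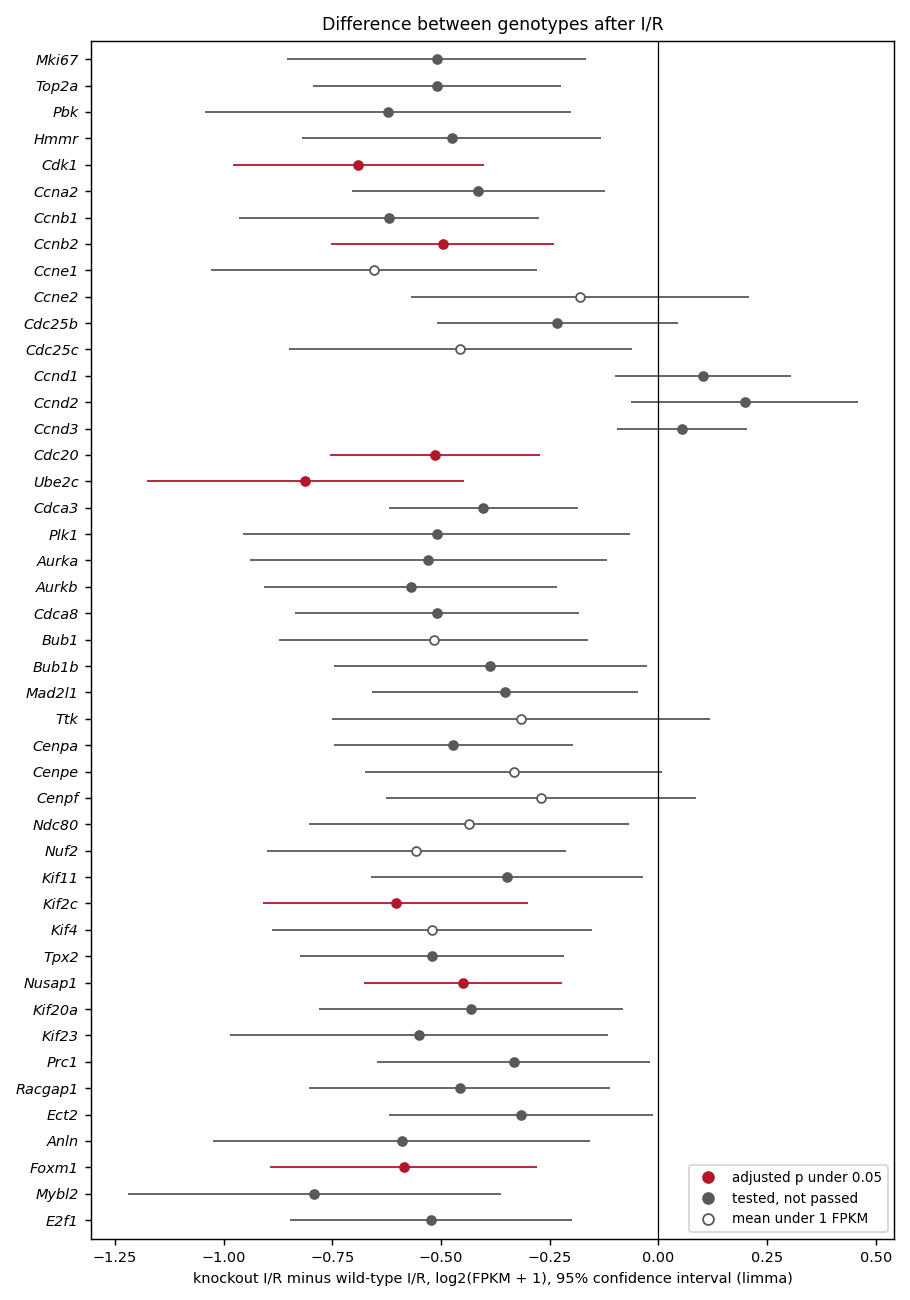
Difference between knockout I/R and wild-type I/R kidneys for each of the 45 genes on the log2(FPKM + 1) scale, with 95% confidence intervals from limma; red points passed at an adjusted p under 0.05, grey points did not, and open points are the 10 genes with a mean under 1 FPKM. The 7 genes that passed lie at -0.45 or below, within the run of the other mitotic genes, and the D-type cyclins lie to the right of 0 as deposited (with equal FPKM sums Ccnd1 and Ccnd3 change sign).

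The number of calls between genotypes after I/R depended on the settings, while its direction was lower in each of them that made a call. It was 0 without any 1 of the 4 I/R libraries, 2 without either wild-type library and 8 without either knockout library. It was 0 with a pseudocount of 0.1 and 24 with limma-voom on recovered reads. With equal FPKM sums 16 members were lower, and the share of all calls that were higher was 20.1%, against 46.4% as deposited.

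Other RNA moved with the mitotic genes in these libraries. The summed level of 8 injured tubule genes was 606 and 600.1 FPKM in knockout I/R, 1323 and 1444 in wild-type I/R, 214 and 214 in knockout and 188 and 170.0 in wild-type kidneys. That of 10 macrophage and monocyte genes was 231 and 214 FPKM in knockout I/R, 300.3 and 337 in wild-type I/R, 68.2 and 61.8 in knockout and 96.4 and 54.5 in wild-type kidneys. That of 7 fibroblast and myofibroblast genes was 131 and 150.1 FPKM in knockout I/R, 177 and 228 in wild-type I/R, 30.7 and 33.5 in knockout and 38.2 and 24.5 in wild-type kidneys. All 3 sums were highest in wild-type I/R kidneys and next in knockout I/R kidneys, as the mitotic genes were, and the proximal tubule sum ran the other way after I/R. Over the same libraries the endothelial sum was 53.9 and 53.2 FPKM in knockout I/R, 43.0 and 42.5 in wild-type I/R, 41.9 and 46.8 in knockout and 48.4 and 46.9 in wild-type kidneys, and the T and NK cell sum 5.71 and 4.78 FPKM in knockout I/R, 4.95 and 3.24 in wild-type I/R, 3.50 and 2.94 in knockout and 11.5 and 5.76 in wild-type kidneys. The neutrophil sum was 11.8 and 8.35 FPKM in knockout I/R, 16.0 and 8.25 in wild-type I/R, 8.97 and 4.12 in knockout and 5.89 and 2.63 in wild-type kidneys, with Retnlg and Ly6g at 0 in at least 1 library. Of these lists, 7 of 8 tested injured tubule genes, 2 of 8 tested macrophage and monocyte genes and 0 of 6 tested fibroblast genes (4 of the 6 at an unadjusted p under 0.05, where 24.2% of all tested genes passed) were lower in knockout I/R kidneys, as were 3.22% of all tested genes. The remaining marker sums were 1494 and 1529 FPKM in knockout I/R, 962 and 1126 in wild-type I/R, 2305 and 1782 in knockout and 2134 and 1706 in wild-type kidneys for thick ascending limb and distal convoluted genes, 215 and 203 FPKM in knockout I/R, 181 and 188 in wild-type I/R, 382 and 266 in knockout and 282 and 255 in wild-type kidneys for the collecting duct, and 69.4 and 67.9 FPKM in knockout I/R, 46.9 and 41.3 in wild-type I/R, 45.1 and 75.0 in knockout and 54.6 and 59.9 in wild-type kidneys for podocytes. They were 18.1 and 17.6 FPKM in knockout I/R, 21.6 and 16.9 in wild-type I/R, 16.8 and 9.29 in knockout and 60.5 and 19.9 in wild-type kidneys for B and plasma cells, and 64.9 and 62.2 FPKM in knockout I/R, 76.7 and 65.1 in wild-type I/R, 432 and 349 in knockout and 804 and 402 in wild-type kidneys for erythroid genes, with 1 of the 6 at 0 in at least 1 library. Higher in knockout I/R kidneys were 3 of 8 tested proximal tubule genes and 4 of 6 thick ascending limb and distal convoluted genes. So were 1 of 5 collecting duct and 1 of 6 endothelial genes, where 2.79% of all tested genes were higher. The T and NK cell, neutrophil, podocyte, B and plasma cell and erythroid lists had no call between the genotypes after I/R. The part of these cell types in the differences of the mitotic genes was not tested.

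Without I/R, no member passed the test between the genotypes. Of the 35 tested, 0 were called, where 0.00752% of all tested genes were. At an unadjusted p under 0.05, 3 members passed (Cdc20, Cdca3 and E2f1), where 9.27% of all tested genes did, and limma-voom on recovered reads also called 0. The knockout libraries lay above the wild-type ones for 12 of the 45 genes and below for 5, where 21.5% and 16.5% of all tested genes had these orders. The median log2 difference of the tested members was 0.01. Cdc20 had 1.78 and 2.06 FPKM in knockout and 0.749 and 0.861 FPKM in wild-type kidneys, a difference of 0.69 ± 0.10 (95% interval 0.45 to 0.93, adjusted p = 0.393). E2f1 had 2.33 and 2.24 FPKM in knockout and 1.21 and 1.12 FPKM in wild-type kidneys (0.60 ± 0.14, 95% interval 0.28 to 0.93, adjusted p = 0.397). In 10 of the 45 members, 8 of them tested, the knockout libraries lay above the wild-type ones without I/R and below them after I/R. Of all tested genes, 5.76% had this order. Since 41 of the 45 members lay below wild type after I/R, that share is no measure of a change of order. The 12 of 45 that lay above wild type without I/R stand beside 21.5% of all tested genes.

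Whether the I/R response itself differed between the genotypes was tested by the interaction. Of the 35 members, 1 passed, Cdc20, whose I/R difference was smaller in knockout by 1.21 ± 0.14 on the log2 scale (a log2 difference of differences of -1.21, adjusted p = 0.0450), where 0.21% of all tested genes passed in that direction and 0.0752% in the other. The call was lost without either I/R library of either genotype, without knockout replicate 1 and without either wild-type library, with adjusted p between 0.0733 and 0.192. Over all alternatives the adjusted p ranged between 0.0378 and 0.192. At an unadjusted p under 0.05, 19 of the 35 passed, where 17.3% of all tested genes did. The median over the tested members was -0.54. With limma-voom on recovered reads, 2 members passed, Cdc20 and E2f1. The comparisons share libraries (the I/R groups enter both the I/R and the genotype differences), so they are not independent.

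Other genes of division and DNA copying were read from lists apart from the 45. As with the 45, some reached the filter only through the I/R libraries, such as Melk (0.0233 to 0.0856 FPKM without I/R). The counts after I/R therefore describe these lists and are no measure of their strength. The shares of all tested genes called after I/R, against which the counts of each list stand, were 8.95% higher and 11.7% lower in knockout and 17.4% higher and 20.1% lower in wild type, and between knockout I/R and wild-type I/R kidneys 3.22% were lower and 2.79% higher. Of 50 other genes of mitosis and the cell cycle, G1 kinases among them, 35 were tested. In knockout 25 rose after I/R, among them Birc5, the survivin subunit of the passenger complex (1.65), and Melk, a kinase of dividing cells (1.62). In wild type 30 rose, among them Cks1b, a Cdk-binding protein (2.21), and Birc5 (2.18). Between knockout I/R and wild-type I/R kidneys 4 were lower, Birc5 (-0.63 ± 0.14, adjusted p = 0.0469), Ccnf (cyclin F, -0.58 ± 0.13, adjusted p = 0.0484) and the G1 kinases Cdk6 (-0.38) and Cdk4 (-0.33), and 0 were higher. The median of the list in that comparison was -0.39.

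Genes of S phase and replication licensing mostly moved in the same direction. Here too some genes, such as Uhrf1, were under 1 FPKM without I/R and reached the filter only through the I/R libraries. Of 24, 19 were tested, and 15 rose after I/R in knockout (8.95% of all tested genes) and 17 in wild type (17.4%), where 1 fell (20.1%). Uhrf1, which recruits maintenance DNA methylation, rose by 1.99 in knockout and 2.97 in wild type, and Rrm2, a subunit of ribonucleotide reductase, by 1.89 and 2.96. Between knockout I/R and wild-type I/R kidneys 10 of the 19 were lower and 0 higher. Rrm2 had 9.89 and 12.4 FPKM in knockout I/R, 19.0 and 22.8 in wild-type I/R, 2.07 and 2.44 in knockout and 1.93 and 1.70 in wild-type kidneys, a difference after I/R of -0.85 ± 0.14 (adjusted p = 0.0228). The licensing factor Cdt1 (-0.83 ± 0.12, adjusted p = 0.0200), the replicative helicase subunit Mcm5 (-0.81 ± 0.13, adjusted p = 0.0247) and Uhrf1 (-0.79 ± 0.15, adjusted p = 0.0323) were among the others. The list median was -0.51.

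Brakes of the cycle and members of the repressor complexes were counted from separate lists. Of 10 genes of Cdk inhibitors and pocket proteins 8 were tested. After I/R 3 rose in knockout, Cdkn1a (1.03 ± 0.26, adjusted p = 0.0356), Cdkn2c (0.45) and Rbl1 (0.42). In wild type 4 rose, with Cdkn1a largest (1.98 ± 0.26, adjusted p = 0.00147), and 2 fell, Cdkn1c (-0.54) and Rbl2 (-0.51). Cdkn1a, which encodes the Cdk inhibitor p21 and is induced by p53, had 6.71 and 6.65 FPKM in knockout I/R, 12.8 and 12.9 in wild-type I/R, 4.05 and 1.80 in knockout and 3.06 and 2.04 in wild-type kidneys, and its difference of -0.85 ± 0.26 between knockout I/R and wild-type I/R kidneys did not pass (adjusted p = 0.108). Of 16 E2F, DREAM and MuvB genes 11 were tested. In knockout 1 rose after I/R, Tfdp1, a dimer partner of the E2F proteins (0.33). In wild type 4 rose, E2f3 (0.65), Tfdp1 (0.63), Lin37 and E2f2, and 1 fell, the MuvB gene Lin52 (-0.54). Between knockout I/R and wild-type I/R kidneys 0 of the 8 and 0 of the 11 were called by limma, and at an unadjusted p under 0.05 3 of the 8 and 3 of the 11 passed, where 24.2% of all tested genes did. In none of the 4 lists was a gene called between knockout and wild-type kidneys without I/R, where 4 of 35, 1 of 19, 3 of 8 and 0 of 11 had an unadjusted p under 0.05, as did 9.27% of all tested genes.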

How the data were processed

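The values are FPKM per gene in each library, as the authors deposited them with coordinates and gene lengths. The submitters' processing notes list build GRCm39 and the tools featureCounts (1.5.0-p3) and DESeq2 (1.20.0). The coordinates were those of GRCm38 for 53499 of 54409 genes matched by identifier to an annotation of that build, and for 43 of the 45 members, so those printed are as the file gives them and are GRCm38. Aligner, strand setting and the way FPKM was computed: not given in the sources used here. Whole reads could be recovered from FPKM and gene length for 100% of values (tolerance 0.05 reads). The library sizes implied by the FPKM, as a ratio to the reads in genes, differed by group. They were 0.990 and 1.01 in knockout I/R, 1.07 and 1.05 in wild-type I/R, 0.857 and 0.899 in knockout and 0.905 and 0.883 in wild-type kidneys. The limma-voom alternative used these implied sizes, so it kept the deposited scale. At this depth 3 reads equal 0.154 to 0.208 FPKM for a gene of 1 kb (counting error only).

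The test was limma (version 3.58.1, R 4.3.3) on log2(FPKM + 1) for genes averaging 1 FPKM or more, with a mean for each of 4 groups (4 residual and 2.90 prior degrees of freedom) and a mean-variance trend, two-sided, with Benjamini-Hochberg adjustment over 13304 genes. This scale understates changes of low genes. The fit was checked on simulated data. Intervals for the 10 members under 1 FPKM come from the same fit with these members added, chosen after seeing the data. Of the members, 24 overlap another annotated gene, and their reads are uncertain where strand was not used. Besides Cdc20, Kif4 and Nusap1, these include Ccna2, Ccne2, Cdc25b, Cdca8 and Kif20a, each of which overlaps a protein-coding gene on the opposite strand. The members and lists were chosen with earlier results of these data known. Every member is named; per-library values are given for Mki67, the 2 most abundant genes of each role, every gene called between genotypes or in the interaction, and those not called higher after I/R in both genotypes. From other lists, up to 4 called genes with the largest differences and Cdkn1a may be named. Cdk4, Cdk6, Lin37, E2f2, Elovl1, Pdzd11 and Oip5 were named after their values were seen or for overlap. Some single-gene results are not reported here. Alternatives were other pseudocounts and filters, no trend, only the groups compared, equal FPKM sums, limma-voom on recovered reads, a replicate block and leaving out each library.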

Additional observations from a re-analysis of the deposited data

Results flagged for a closer look

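In 10 members every knockout library lay above every wild-type library without I/R and below every wild-type library after I/R. This is an order of libraries only, as no member passed the test between genotypes without I/R. Whether the genotype difference changed with I/R was tested as the interaction of genotype and I/R. It passed for Cdc20, with -1.21 on the log2 scale (adjusted p = 0.0458). That call was lost with no filter, with a mean of at least 0.1 FPKM and with a replicate block. The reads of Cdc20 are also uncertain because of its overlap with Elovl1. The other 9 did not pass: Cdk1 with -0.92 (adjusted p = 0.0847), Ccnb2 with -0.74 (0.0946), Ccna2 with -0.61 (0.159), Cdca3 with -0.66 (0.0903), Tpx2 with -0.62 (0.163), Anln with -0.67 (0.252) and E2f1 with -1.13 (0.0758). Below 1 FPKM, Cenpf had -0.33 (0.467) and Nuf2 -0.61 (0.206). These adjusted p-values come from the limma fit with the members under 1 FPKM added. Of all tested genes 5.76% had such an order.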

How the results depend on the processing

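The number of members called for I/R stayed within 1.5 times its value in knockout (27 to 39) and wild type (32 to 43) under every alternative run, and the number called between genotypes without I/R was 0 in each. Between genotypes after I/R, 7 members were called. Other settings did not always call the same members: no filter lost all 7 and called Nuf2 instead. A mean of at least 0.1 FPKM lost 5 of the 7 and added 1 other member. The count was 0 with a pseudocount of 0.1, 2 with 0.5, 1 with no filter, 3 with a mean of at least 0.1 FPKM, 11 with no trend, 16 with equal sums and 24 with limma-voom, and 0 to 8 when 1 library was left out. For the interaction, 1 member was called, 0 with no filter or a mean of at least 0.1 FPKM, 2 with limma-voom and 0 to 1 when 1 library was left out. Over all genes, I/R in knockout gave 2748 calls, 1790 with no filter, 1556 with only the groups compared and 583 to 3305 when 1 library was left out. I/R in wild type gave 4992 (3181 to 5453 when 1 library was left out). Knockout after I/R gave 800, 305 with no filter, 528 with a mean of at least 0.1 FPKM, 1503 with limma-voom and 8 to 1262 when 1 library was left out. Knockout without I/R gave 1, 2 with a pseudocount of 0.1 or 0.5, 10 with no filter, 3 with a mean of at least 0.1 FPKM, 0 with only the groups compared or limma-voom, and 1 to 6 when 1 library was left out. The interaction gave 38, 14 and 21 with pseudocounts of 0.1 and 0.5, 13 with a mean of at least 0.1 FPKM, 61 with equal sums, 175 with limma-voom and 0 to 206 when 1 library was left out. The causes were not tested.

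With the replicate number as a block, 0 members were called between genotypes after I/R and 0 in the interaction, with 461 and 9 calls over all genes. Same-numbered libraries deviated together little over all tested genes (correlations between groups from -0.083 to 0.161). With 2 libraries a group this cannot exclude that the numbers pair samples, and the labels do not say whether they do. Of 3215 member values under alternatives, 3078 kept their side of the threshold, 94 no longer passed, 43 newly passed and none of the called ones changed sign. With only 2 libraries a group, leaving 1 out leaves a lone sample that is assumed to vary like the other groups. Depth limits the members under 1 FPKM. The interaction was not run with only the groups compared, since it uses all 4.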
